A study of Arabidopsis thaliana with 32 samples.

Results

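The change in translational efficiency of Arabidopsis thaliana roots kept without magnesium was measured in 12 libraries, of 24 libraries with a group in the series and 32 samples in all. The 12 were chosen by their labels as the root libraries, and they form 4 groups of 3: total RNA and ribosome-bound RNA, each from control (CK) and magnesium-deficient (MgD) plants. All plants, controls included, carried p35s:HF-RPL18, a transgene that places an epitope tag on the ribosomal protein RPL18 and is driven by the broad 35S promoter, so ribosomes of cells in which the promoter is weak are captured less. Plants were 6 weeks old, grown in hydroponic culture in days of 10 h light and nights of 14 h, before a transfer of 1 day to full medium or to medium in which sodium sulfate took the place of magnesium sulfate. Ribosomes with the tag were captured by affinity (TRAP), and the RNA on them is called TRAP RNA. The labels call the 3 libraries of a group independent replicates. Separate plants are not named as their source, and the p-values therefore reflect no more than library-to-library spread, part of which may be technical.

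Magnesium ions hold ribosomal RNA and the ribosomal subunits in shape, they accompany every ATP used in translation, and they are the central ion of chlorophyll. Translational efficiency is the amount of a message found on ribosomes relative to its amount in total RNA. A message whose TRAP level moves by the same factor as its total level keeps its efficiency, and the quantity followed here, the interaction, is the log2 change in TRAP RNA minus the log2 change in total RNA, each MgD over CK. Because RNA is measured relative to the other RNA of a library, a general loss or gain of translation would not show.

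Root libraries held between 6147531 and 33956906 counts. Within a group the Pearson correlation of log2 CPM, taken here without TMM factors, ranged from 0.9785 to 0.995. All other CPM are counts scaled to library size with TMM factors. The root label was matched by CASP1 and PER64 of the Casparian strip at 53.9 to 113 and 44.2 to 67.8 CPM in root total RNA, against at most 1.01 and 0.96 CPM in shoot, by RHD2 of root hairs at 33.7 to 49.5 CPM and by the xylem-loading phosphate exporter PHO1 at 431 to 485 CPM. ESB1, another Casparian strip gene, reached at most 0.339 CPM in root, and COBL9 of root hairs 1.15 to 4.17 CPM. Among 43 photosynthesis genes, none of them at 0, the summed level in root total RNA was 721 to 1840 CPM against at least 180000 CPM in shoot. RPL18B, whose endogenous and tagged transcripts cannot be told apart here, was at 2020, 1630 and 1240 CPM in total CK and 1890, 1340 and 1200 in total MgD. In TRAP RNA it was at 8170, 12900 and 13500 CPM under CK and 11000, 10200 and 13400 under MgD, so the groups overlapped in both RNA types (interaction 0.15 ± 0.36 SE, with a sign that changed in some alternative analyses).

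Of those libraries, 2 of total RNA lay at the ends of the range of GC content. Root Total CK replicate 1 had relatively little RNA of genes with a low GC content in the coding sequence, and Root Total MgD replicate 3 had relatively much of it and was the shallowest. For Root Total MgD replicate 3 the deposited TPM values rested on 11727584 reads and the deposited counts on 6147531, so the 2 tables hold different reads for it. Root Total CK replicate 1 and Root Total MgD replicate 3 are called the GC-end libraries, and the recovered reads are those of the TPM table. Root TRAP CK replicate 1 also stood apart: it had the lowest correlation within a group, 0.9785 with replicate 3, and a voom sample weight of 0.341, beside 0.309 for Root Total CK replicate 1 and 0.525 to 2.61 for the other 10 libraries. Without it edgeR called 0 genes in the interaction.

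No gene passed the threshold for a change in translational efficiency in edgeR. Of 20311 genes tested with edgeR's quasi-likelihood test, 0 (0%) had an adjusted p under 0.05, and the smallest adjusted p was 0.934. At an unadjusted p under 0.05 there were 968 genes (4.77%), 445 higher (2.19%) and 523 lower (2.57%). Counts of list members at that p are to be read beside these shares, and no list was tested as a set. Without TMM scaling the split was 280 higher and 679 lower. DESeq2 called 5 genes (0.0246% of 20307), limma on voom values with sample weights 0 and limma on log2(TPM + 1) 0. The 2 changes that make up the interaction gave no edgeR calls either: 0 genes in total RNA, with 503 (2.48%) at an unadjusted p under 0.05, and 0 in TRAP RNA, with 2284 (11.2%). DESeq2 called 1 gene in total RNA and 170 in TRAP RNA. The median standard error of the interaction was 0.34 on the log2 scale, and 0.27 for the 13007 genes with an average log2 CPM of at least 3.

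The ribosome-bound RNA carried the larger part of the difference in most genes with a low unadjusted p. Of the 445 higher genes, 326 moved more in TRAP RNA and 119 more in total RNA, with medians of 0.47 in TRAP and -0.23 in total RNA. Of the 523 lower genes, 478 moved more in TRAP RNA and 45 more in total RNA, with medians of -0.70 and 0.17. The signs of the 2 changes were opposite in 389 of the 445 and in 424 of the 523, a split that choosing genes by the interaction favours. The TRAP change was also the wider one over all genes, with an SD of 0.59 against 0.35 for the total RNA change. A larger part in TRAP RNA is therefore not shown to be particular to the genes with a low unadjusted p. Across the 13007 better measured genes the TRAP and total changes had a Pearson r of 0.302, a description across genes, which are not independent. The 170 genes that DESeq2 called in TRAP RNA split into 54 higher and 116 lower. They were called by the contrast of the TRAP groups, in a fit whose scaling and dispersions used all 12 root libraries, total RNA included. Their median change was 0.60 in TRAP and 0.061 in total RNA for the 54, of which 41 were above 0 in total RNA, beside 47.9% of all genes. For the 116 the medians were -0.95 and -0.076, and 71 were below 0 in total RNA, beside 52.1% of all genes.

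**Figure D1:**
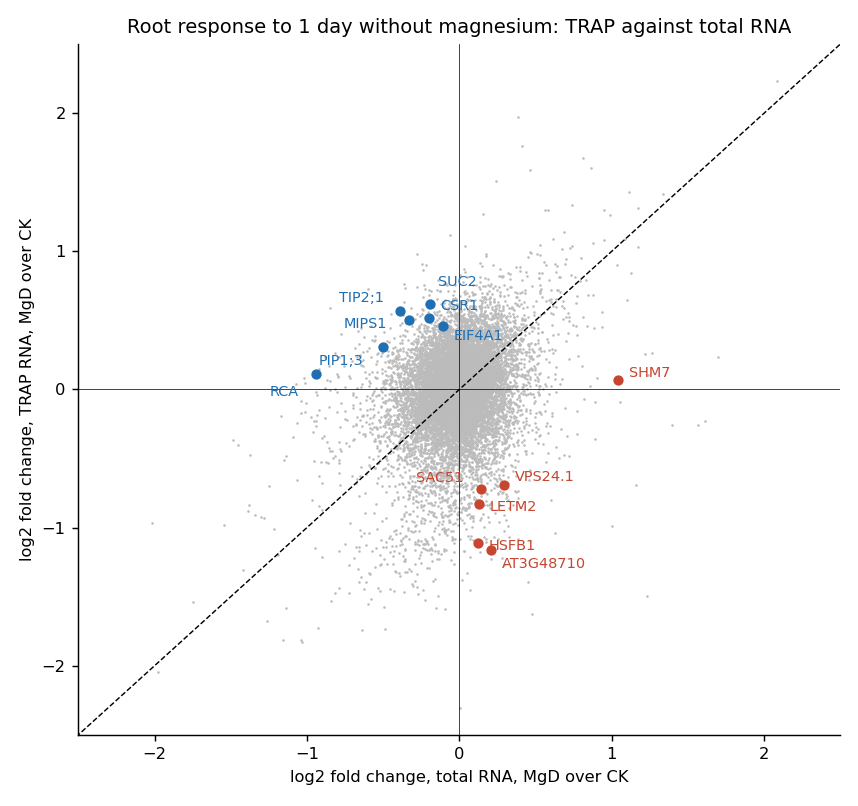
Each grey point is one of 13007 genes with an average log2 CPM of at least 3, with its log2 fold change (MgD over CK) in total RNA on the x axis and in TRAP RNA on the y axis; 4 genes lie beyond the axes. The dashed line marks equal change, that is, no change in translational efficiency, and the 13 named genes, chosen for illustration, lie above it (blue) or below it (red).

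The 5 genes that DESeq2 called comprised 1 aquaporin that rose and 4 genes that fell. PIP1;3 (AT1G01620), a water channel of the plasma membrane, was at 974, 958 and 1090 CPM in total CK and 710, 726 and 708 in total MgD. In TRAP RNA it was at 2560, 2300 and 2500 CPM under CK and 3050, 3100 and 2980 under MgD. All MgD libraries were thus lower in total RNA and higher in TRAP RNA, with no overlap, which 39 of the 20311 genes (0.192%) showed. In a single RNA type, a lack of overlap in either direction was common: 2076 genes (10.2%) in total RNA and 2842 (14.0%) in TRAP RNA. The ratio of TRAP to total CPM went from 2.43 to 4.26, an interaction of 0.80 ± 0.14 (DESeq2 adjusted p 0.000258) or 0.81 ± 0.18 (edgeR adjusted p 0.934). Leaving out single libraries moved the edgeR value between 0.75 and 0.85, and with the recovered reads it was 0.65.

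VPS24.1 (AT5G22950), a subunit of the ESCRT-III complex that buds vesicles into late endosomes, went the other way. It was at 36.7, 36.0 and 36.0 CPM in total CK and 39.5, 40.6 and 52.9 in total MgD. The highest of these, 52.9 CPM, was in Root Total MgD replicate 3, a GC-end library. TRAP CK libraries held 24.9, 26.3 and 22.5 CPM and TRAP MgD libraries 15.7, 16.1 and 13.8. Total RNA was higher and TRAP RNA lower without overlap, a pattern of 43 of the 20311 genes (0.212%), and the interaction was -0.98 ± 0.22 (DESeq2 adjusted p 0.0427). AT3G48710, which RefSeq describes as a DEK domain-containing chromatin associated protein, was at 24.2, 17.5 and 16.2 CPM in TRAP CK against 10.2, 7.89 and 7.79 in TRAP MgD. Its total RNA was at 19.7, 28.1 and 22.6 CPM under CK and 23.8, 28.7 and 28.8 under MgD, which overlapped. Its interaction was -1.38 ± 0.31 (DESeq2 adjusted p 0.0427), with an edgeR range of -1.52 to -1.17 when single libraries were left out.

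The other two calls were chloroplast-encoded loci with very few reads on ribosomes. ATCG00490 had 161 counts in the 3 TRAP CK libraries together and 16 in the 3 TRAP MgD libraries, or 4.81, 2.44 and 1.69 CPM against 0.519, 0.175 and 0.113. In total RNA it was at 1.43 to 2.5 CPM under CK and 1.42 to 3.60 under MgD. ATCG00800 had 73 TRAP counts under CK and 8 under MgD, with 53.5 to 71.4 CPM in total CK and 43.0 to 59.2 in total MgD. Their DESeq2 interactions were -3.74 ± 0.83 (adjusted p 0.0427) and -3.07 ± 0.62 (adjusted p 0.0073). Chloroplasts translate with ribosomes of their own, which do not carry the tag. The share of chloroplast-encoded reads in each TRAP library stands with the other organelle genes, and its part in these 2 calls was not tested.

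**Figure D2:**
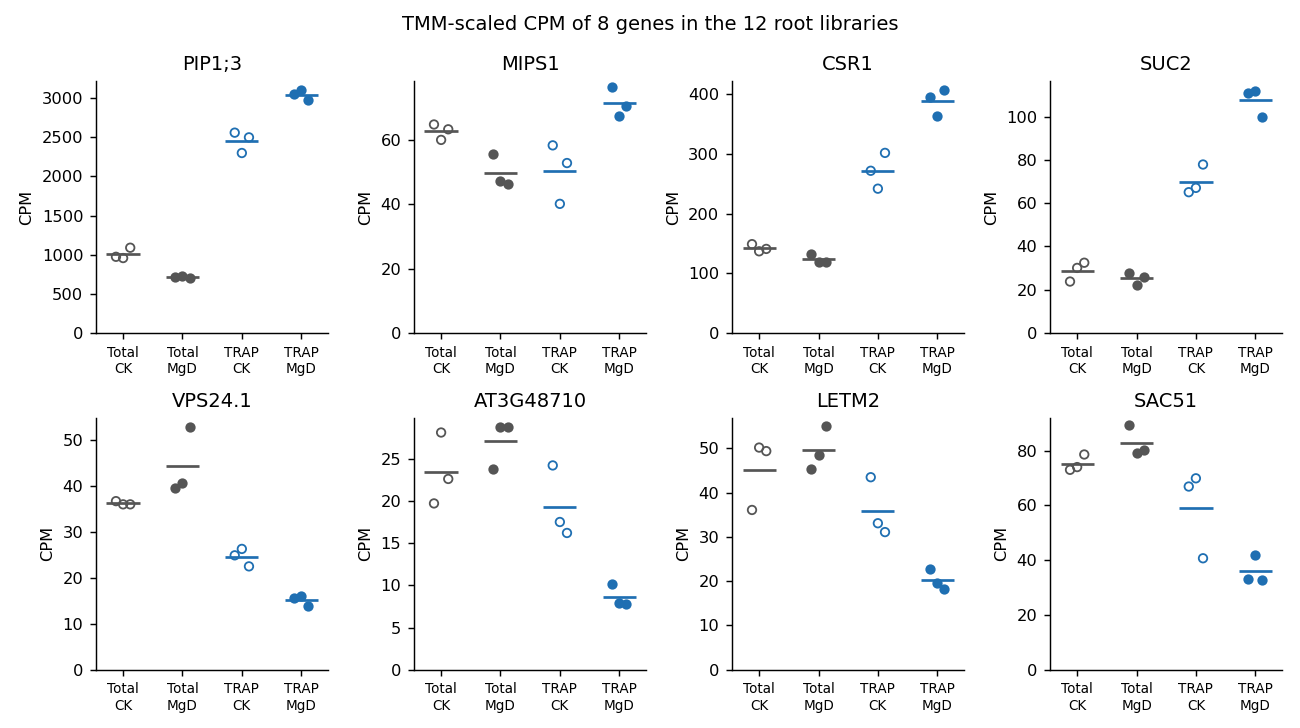
TMM-scaled CPM (y axis from 0) of 8 genes in each of the 12 root libraries; open circles are CK, filled circles MgD, grey total RNA, blue TRAP RNA, and bars the mean of 3 libraries. In the upper row the TRAP MgD libraries lie above the TRAP CK libraries, and in the lower row below them, except for 1 library of SAC51. Over all genes, 14.0% had no overlap between CK and MgD in TRAP RNA.

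The 12 genes with the smallest unadjusted p among those with a higher efficiency under MgD, taken with a symbol and an average log2 CPM of at least 1, each had an edgeR adjusted p of 0.934. PIP1;3 led the 12, followed by EXL5, an EXORDIUM-like wall protein, at 1.00 ± 0.23. EXL5 was at 14.8, 10.7 and 11.7 CPM in total CK and 10.1, 9.91 and 8.75 in total MgD, and at 13.2, 15.8 and 17.0 in TRAP CK against 22.0, 23.7 and 25.7 in TRAP MgD. MIPS1, the synthase that makes myo-inositol phosphate from glucose 6-phosphate, was at 64.9, 60.1 and 63.4 CPM in total CK and 55.6, 47.4 and 46.3 in total MgD. Its TRAP RNA was at 58.4, 40.2 and 52.9 CPM under CK and 76.6, 67.5 and 70.8 under MgD, an interaction of 0.84 ± 0.21, which was 0.48 with the recovered reads. CSR1, the acetolactate synthase of branched-chain amino acid synthesis, was at 149, 137 and 141 CPM in total CK and 133, 119 and 119 in total MgD. With 272, 242 and 302 CPM in TRAP CK and 396, 363 and 408 in TRAP MgD, it had an interaction of 0.72 ± 0.18. These 4 genes shared the pattern of PIP1;3, lower in total and higher in TRAP RNA without overlap.

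In the remaining 8, TRAP RNA carried the larger part of the difference, except in HCF136, whose change was -0.62 in total and 0.45 in TRAP RNA. SUC2, the sucrose-proton symporter of phloem companion cells, was at 65.1, 67.1 and 77.9 CPM in TRAP CK and 111, 112 and 99.7 in TRAP MgD, while its total RNA overlapped at 23.8 to 32.5 and 22.3 to 27.6 CPM (interaction 0.81 ± 0.21). CAT8, a cationic amino acid transporter, was at 17.7, 24.2 and 25.6 CPM in TRAP CK and 40.7, 42.1 and 40.7 in TRAP MgD, with a total RNA change of 0.031 (interaction 0.84 ± 0.23). ELP, annotated as an extensin-like protein, had an interaction of 0.99 ± 0.26, which was 0.64 with the recovered reads, and the tubulin gene TUB1 1.33 ± 0.37, which was 0.60 with the recovered reads. Both genes of chloroplast function among them were HCF136, an assembly factor of photosystem II (1.07 ± 0.28), and APE2, the triose phosphate translocator of the chloroplast envelope (0.99 ± 0.29). SKB1, a protein arginine methyltransferase (0.65 ± 0.20), and HHP3, a heptahelical membrane protein (0.61 ± 0.18), completed the set.

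The 12 genes with the smallest unadjusted p among those with a lower efficiency were led by 2 ESCRT-III subunits, VPS24.1 and VPS2.3. VPS2.3 was at 13.6, 15.3 and 14.1 CPM in total CK and 16.3, 18.6 and 24.7 in total MgD, and at 8.89, 10.3 and 9.55 in TRAP CK against 7.57, 6.05 and 5.53 in TRAP MgD (interaction -1.05 ± 0.26). LETM2, a LETM1-like protein of mitochondria, was at 43.5, 33.1 and 31.1 CPM in TRAP CK and 22.7, 19.6 and 18.3 in TRAP MgD (-0.96 ± 0.25). Its total RNA overlapped, at 36.1, 50.2 and 49.4 CPM under CK and 45.3, 48.6 and 55.1 under MgD. CHR23, an ATPase of chromatin remodelling, had -1.34 ± 0.37, PRHA, a homeodomain protein, -1.52 ± 0.45, and FIP37, a subunit of the complex that methylates adenosine in messages, -0.98 ± 0.30. For PRHA and CHR23 the TRAP CK libraries were uneven, at 23.7, 10.1 and 8.66 CPM for PRHA and 11.1, 5.29 and 6.37 for CHR23. Without Root TRAP CK replicate 1, the high library of both, the interaction of PRHA was -0.93.

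NET1D, an actin-binding protein of the NETWORKED family, was at 53.6, 34.5 and 32.9 CPM in TRAP CK and 27.4, 23.4 and 17.4 in TRAP MgD (-1.02 ± 0.29). AGG2, a gamma subunit of the heterotrimeric G protein, had -0.90 ± 0.26, PAS1, an immunophilin, -0.80 ± 0.23, the protein kinase ATN1 -0.74 ± 0.21 and the Golgi protein CASP -0.71 ± 0.20. SAC51, the twelfth gene, belongs to the messages listed for an upstream reading frame and is described with them. All 24 genes kept the sign of their interaction in each of the 29 alternative analyses, a property that the choice by small p favours.

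Aquaporins, the water channels of the plasma membrane (PIP) and of the vacuole (TIP), were the largest list with all tested genes on one side of 0. All 19 listed genes were tested and all 19 had an interaction above 0, with a median of 0.34 beside 0.0092 over all genes, of which 51.1% were above 0. None was called by edgeR, and 4 were higher at an unadjusted p under 0.05, beside 2.19% of all genes. The members were lower in total RNA in 19 of 19 (median -0.37), while in TRAP RNA 12 were above 0 and 7 below (median 0.15). The values ran from 0.16 for PIP2;6, a plasma membrane channel, to 0.96 ± 0.29 for TIP2;1, a channel of the tonoplast. TIP2;1 was at 120, 80.8 and 79.5 CPM in total CK and 83.1, 72.0 and 58.2 in total MgD, and at 497, 332 and 407 in TRAP CK against 688, 560 and 592 in TRAP MgD. PIP2;7 was at 636, 627 and 806 CPM in TRAP CK and 751, 935 and 970 in TRAP MgD, and at 299 to 387 in total CK against 255 to 280 in total MgD (0.69 ± 0.23). PIP2;8 had 0.65 ± 0.28, with overlap in both RNA types.

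The aquaporin values moved with the GC-end libraries. Without both, the median was 0.19 and 14 of 19 members were above 0, with scaling by GC content it was 0.18 with 18 of 19, and with the recovered reads 0.28 with 18 of 19. Without Root Total CK replicate 1 alone it was 0.16, and without Root Total CK replicate 2 alone 0.50. With the submitters' original library numbers as a block the median was 0.46 with 19 of 19 above 0. That block rests on the 4 pairs of total and TRAP libraries that share a number, and the unpaired libraries add nothing. With the recovered reads TIP2;1 had 0.17, PIP2;7 0.33 and PIP1;3 0.65. Near-identical PIP genes share reads, and the counts of PIP2;2 and PIP2;3 in particular may be split between them.

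**Figure D3:**
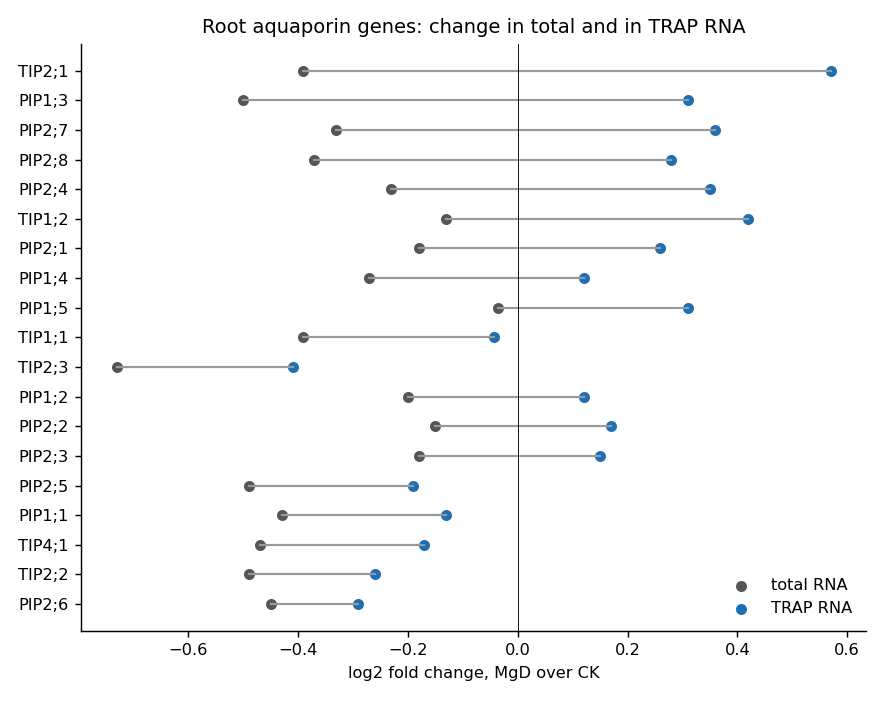
Log2 fold change (MgD over CK, x axis) in total RNA (grey) and TRAP RNA (blue) for each of the 19 aquaporin genes, ordered by the distance between the points, which is the interaction. The grey points are below 0 for all 19 genes and every blue point lies to the right of its grey point.

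Phloem genes were followed because SUC2 marks the companion cells that load sugar. All 12 listed genes had an interaction above 0 (median 0.31), with 1, SUC2, at an unadjusted p under 0.05. TRAP RNA was above 0 in 12 of 12 (median 0.42) and total RNA in 10 of 12 (median 0.10). The iron-peptide transporter OPT3 had 0.91 ± 0.54, with TRAP CK libraries at 73.4, 83.6 and 216 CPM, and FTIP1, which carries the flowering signal out of companion cells, 0.39 ± 0.24. Their summed level in TRAP RNA was 853, 1010 and 1470 CPM under CK and 1390, 1620 and 1550 under MgD, and in total RNA 363, 504 and 488 against 487, 473 and 430, so both RNA types overlapped. A larger share of tagged ribosomes from phloem and more phloem messages per ribosome cannot be told apart in bulk RNA, which holds for every cell type list here. The median was 0.17 without Root TRAP MgD replicate 2 and 0.68 without Root TRAP CK replicate 3, 0.45 without both GC-end libraries and 0.20 with the submitters' original library numbers as a block.

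Magnesium transport genes, the transporters of the medium from which the ion was removed, had no common direction. Of 12 listed genes 11 were tested, since MGT5 was at 0 counts in all 12 libraries, and 6 were above 0 with a median of 0.012. None was called, and none had an unadjusted p under 0.05. MGT6, the uptake transporter of the plasma membrane, was at 29.6, 24.7 and 24.4 CPM in total CK and 25.8, 28.6 and 22.1 in total MgD, and at 31.0, 20.3 and 22.0 in TRAP CK and 25.2, 24.5 and 22.5 in TRAP MgD. Its groups overlapped throughout, with an interaction of 0.012 ± 0.25. MGT4 had the narrowest error of the family, at 43.4 to 46.7 CPM in total CK, 41.7 to 44 in total MgD, 56.1 to 58.4 in TRAP CK and 60.8 to 69.1 in TRAP MgD (0.25 ± 0.15). The vacuolar exchanger MHX had 0.43 ± 0.37, MGT7 0.40 ± 0.41, MGT1 0.33 ± 0.29 and MGT2 0.028 ± 0.27. Below 0 were CNGC10, a channel implicated in magnesium transport (-0.39 ± 0.45), MGT3 (-0.27 ± 0.22), MGT10 (-0.074 ± 0.28), MGT8 (-0.036 ± 0.58) and MGT9 (-0.026 ± 0.27). The signs of MGT2, MGT6, MGT8, MGT9 and MGT10 changed in some alternative analyses.

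Genes of calcium, potassium and proton handling were as evenly split. Of 24 tested, 12 were above 0 with a median of 0.041, and 2 were lower at an unadjusted p under 0.05, beside 2.57% of all genes. Both were CBL calcium sensors, which recruit CIPK kinases to membranes. CBL9 was at 16.5, 15.3 and 12.9 CPM in TRAP CK and 8.50, 9.34 and 9.03 in TRAP MgD, with total RNA at 23.8 to 26.8 and 19.7 to 29.7 CPM (-0.65 ± 0.23). CBL3, a sensor at the tonoplast, was at 51.4, 65.6 and 55.8 CPM in TRAP CK and 43.5, 46 and 44.7 in TRAP MgD (-0.41 ± 0.17). The vacuolar proton pyrophosphatase AVP1, which itself uses magnesium, had 0.61 ± 0.29, and the potassium channel SKOR of the stele -0.55 ± 0.36.

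Messages of the translation machinery had small positive medians that were close to 0 without both GC-end libraries. Among 27 translation factors and their regulators, 20 were above 0 (median 0.27), with 2 higher at an unadjusted p under 0.05 (2.19% of all genes) and none lower. The median was 0.059 with 15 of 27 above 0 without both GC-end libraries, and 0.14 without Root Total CK replicate 1 alone. EIF4A1, the helicase that opens messages for initiation, was at 790, 884 and 998 CPM in TRAP CK and 1230, 1180 and 1260 in TRAP MgD, while total RNA overlapped at 484 to 622 and 438 to 570 CPM (0.57 ± 0.22). RACK1B and RACK1A, scaffold proteins of the small subunit, had 0.63 ± 0.29 and 0.60 ± 0.29. EIF4G, the scaffold of the cap complex, lay below 0 at -0.45 ± 0.21, with 153, 109 and 134 CPM in TRAP CK and 95.7, 103 and 102 in TRAP MgD.

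Among the genes that RefSeq notes place in the cytosolic small subunit, 53 of 63 tested were above 0 (median 0.25), and in the large subunit 58 of 68 (median 0.12). At an unadjusted p under 0.05 there were 2 and 0, beside 4.77% of all genes in either direction. These lists follow the notes and include a few organelle proteins, such as MRPL11. The S5 family gene AT2G41840 had 0.67 ± 0.27 and the S3 family gene AT5G35530 0.56 ± 0.21, and EMB3010, a protein of the S6 family, 0.48 ± 0.24. In the large subunit the L15 family gene AT4G16720 had 0.51 ± 0.24. Total RNA was below 0 in 61 of the 63 and 67 of the 68 genes. The summed CPM of the large subunit was 22200, 15000 and 13900 in total CK and 15300, 13200 and 13700 in total MgD, with Root Total CK replicate 1 alone above the rest. Without both GC-end libraries the medians were 0.016 and -0.081, with 34 of 63 and 22 of 68 above 0.

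Messages listed for an upstream reading frame, which in some of them stalls or releases ribosomes according to a metabolite, were followed because their translation is regulated in known cases. The list was written by hand, and not every member was checked for a conserved upstream peptide. Of 22 tested, 9 were above 0 (median -0.13), with 5 lower and 1 higher at an unadjusted p under 0.05, beside 2.57% and 2.19% of all genes. The median ran from -0.27 to -0.06 when single libraries were left out and was -0.026, with 10 of 22 above 0, with the block. SAC51, a transcription factor whose frame responds to thermospermine, was at 73.0, 74.0 and 78.6 CPM in total CK and 89.2, 79.1 and 80.3 in total MgD, and at 66.9, 69.9 and 40.7 in TRAP CK against 33.2, 41.9 and 32.8 in TRAP MgD (-0.86 ± 0.26). The TRAP groups overlapped through Root TRAP CK replicate 3. HSFB1, a class B heat shock factor, was at 265, 197 and 108 CPM in TRAP CK and 123, 71.4 and 69.8 in TRAP MgD, with total RNA between 194 and 253 CPM in all 6 libraries (-1.23 ± 0.41). BZIP2, a bZIP factor whose frame responds to sucrose, was at 136, 172 and 97.5 CPM in TRAP CK and 94.0, 76.3 and 83.2 in TRAP MgD (-0.65 ± 0.27). These did not overlap, as in 14.0% of all genes in TRAP RNA. VTC2, the ascorbate synthesis enzyme whose frame responds to ascorbate, lay above 0 at 0.63 ± 0.20, with 30.7 to 35.5 CPM in total CK and 22.6 to 26.9 in total MgD and overlap in TRAP RNA. In SAC51, HSFB1 and BZIP2, Root TRAP CK replicate 3 was the library closest to MgD.

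**Figure D4:**
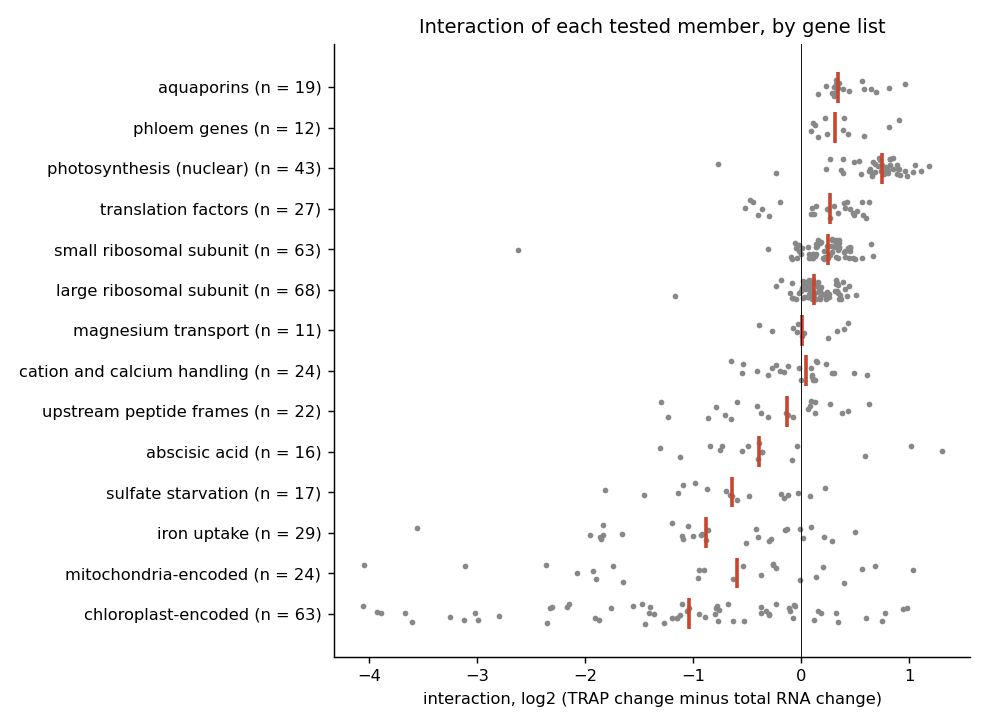
Interaction (log2, x axis) of each tested gene (grey points, spread vertically for display) in 14 gene lists, with the number of genes in brackets; red bars are the list medians. Medians run from -1.04 for chloroplast-encoded genes to 0.75 for nuclear photosynthesis genes. The list labelled upstream peptide frames holds genes listed for an upstream reading frame, not all of them checked for a conserved peptide.

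Genes of sulfate and iron starvation, the nutrient lists with the lowest medians, had medians well above 0 in total RNA but not in TRAP RNA. For sulfate, 16 of 17 tested genes were above 0 in total RNA (median 0.85) and 12 in TRAP RNA (median 0.11), and the interaction was above 0 in 2 of 17 (median -0.64), with no gene at an unadjusted p under 0.05 in the higher or lower direction. The serine hydroxymethyltransferase SHM7 was at 66.9, 83.4 and 71.5 CPM in total CK and 168, 175 and 114 in total MgD, without overlap (10.2% of all genes had none in total RNA). In TRAP RNA it was at 76.3, 150 and 53.9 CPM under CK and 110, 113 and 69.7 under MgD (-0.98 ± 0.46). SDI1, a repressor of glucosinolate synthesis induced by low sulfur, was at 16.2, 20.6 and 11.8 CPM in total CK and 57.1, 60.9 and 39.1 in total MgD, and at 43.6, 88.5 and 16.5 in TRAP CK and 80.8, 61.4 and 32.5 in TRAP MgD (-1.46 ± 0.70). The adenosine phosphosulfate reductase APR2 had -0.64 ± 0.43 and LSU2, a small protein induced by low sulfur, -1.14 ± 0.78. Root TRAP CK replicate 2 was the highest TRAP CK library for all 4, and without it the list's median was -0.18. The blocked median, to which that library also adds nothing, was -0.34. The MgD medium held sulfate.

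For iron, 26 of 29 tested genes were above 0 in total RNA (median 0.45) and 9 in TRAP RNA (median -0.23). The interaction was above 0 in 5 of 29 (median -0.88), with 2 lower at an unadjusted p under 0.05, beside 2.57% of all genes. Those were MYB10 and MYB72, transcription factors of iron uptake. MYB10 was at 2.86, 4.95 and 2.32 CPM in total CK and 6.47, 15.9 and 3.47 in total MgD, and at 1.92, 4.1 and 3.43 in TRAP CK and 2.28, 2.46 and 1.52 in TRAP MgD (-1.96 ± 0.70). MYB72 had 36 counts in TRAP CK and 14 in TRAP MgD (-3.56 ± 1.32). The coumarin exporter ABCG37 had -0.86 ± 0.51, and the nicotianamine synthase NAS4 lay above 0 at 0.50 ± 0.31. Over the list the summed CPM was 2110, 3570 and 1540 in total MgD and 1570, 1680 and 1450 in total CK, so Root Total MgD replicate 2 was far above the rest and replicate 3 was within CK. The median ran from -1.14 to -0.25 when single libraries were left out, with the latter value without Root TRAP CK replicate 2. It was -0.32 with the block, to which Root TRAP CK replicate 2 also adds nothing.

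Abscisic acid genes also had a negative median, -0.39, with 3 of 16 tested genes above 0 and 1 lower at an unadjusted p under 0.05. That gene was ABI2, a phosphatase that restrains abscisic acid signalling, at 28.1, 16.6 and 11.1 CPM in TRAP CK and 10.9, 9.38 and 8.58 in TRAP MgD (-0.84 ± 0.38). Root TRAP CK replicate 1 stood above the rest of TRAP CK, with a summed level of the list of 4960 CPM against 1780 and 1540, and without it the median was -0.064 and ABI2 had -0.42. With the recovered reads the median was -0.76. RD22, a dehydration-responsive gene, lay above 0 at 1.02 ± 0.50, with 17.5 to 20.7 CPM in total CK and 8.84 to 12.4 in total MgD. The nitrate reductase NIA1 was the 1 of 13 nitrate genes at an unadjusted p under 0.05, at 630, 758 and 1130 CPM in TRAP CK and 1130, 1390 and 1450 in TRAP MgD (0.68 ± 0.30, or 0.39 with the recovered reads). Of the 13, 11 were above 0 (median 0.15), but the median ran from -0.11 to 0.36 when single libraries were left out, and was 0.49 without both GC-end libraries and 0.08, with 8 of 13 above 0, with the recovered reads.

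Nuclear photosynthesis genes had the highest median of the larger lists, from a lower total RNA. Of 43 tested, 41 were above 0 (median 0.75), 8 of them at an unadjusted p under 0.05, beside 2.19% of all genes that were higher at that p. The median ran from 0.56 to 1.19 when single libraries were left out, the latter without Root TRAP CK replicate 1, and was 1.27 with the block. Total RNA was below 0 in 43 of 43 (median -0.89) and TRAP RNA in 30 of 43 (median -0.16). RCA, Rubisco activase, was at 116 ± 17 CPM (SD, n = 3) in total CK, above every total MgD library, which held 38.9, 51.2 and 92.6, and at 139, 113 and 128 in TRAP CK and 144, 147 and 118 in TRAP MgD (1.04 ± 0.36). LHCB1.3, a light-harvesting protein, was at 239, 173 and 199 CPM in total CK and 107, 102 and 149 in total MgD, while TRAP RNA overlapped between 349 and 833 CPM (1.18 ± 0.42). PETC, the Rieske protein, had 0.80 ± 0.27, and PSBQA of photosystem II 1.11 ± 0.38. The list made up 0.238%, 0.200% and 0.226% of counts in total CK and 0.102%, 0.104% and 0.176% in total MgD. In TRAP RNA it made up 0.630%, 0.324% and 0.303% under CK and 0.497%, 0.443% and 0.275% under MgD, so total RNA separated and TRAP RNA overlapped. These are genes of green tissue, and the part of shoot material in their root levels was not tested.

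Genes encoded in the organelles lay on the other side. Of 88 chloroplast-encoded loci 63 were tested, with 10 above 0 (median -1.04). At an unadjusted p under 0.05, 11 were lower and 1 higher, beside 2.57% and 2.19% of all genes. The median was -1.33 in TRAP and -0.28 in total RNA. The higher locus was ATCG00480, at 252, 272 and 329 CPM in total CK, 154, 176 and 250 in total MgD, 7.86 to 11.4 in TRAP CK and 11.2 to 14.0 in TRAP MgD (0.94 ± 0.29). The chloroplast-encoded share of TRAP counts was 0.0165%, 0.0119% and 0.00611% under CK and 0.00624%, 0.00495% and 0.00493% under MgD, against 0.108% to 0.165% in total RNA. Without Root TRAP CK replicate 1 the median was -0.48, and with the block -0.59. Of 122 mitochondria-encoded loci 24 were tested, with 6 above 0 (median -0.59) and 2 lower at an unadjusted p under 0.05, and their share of TRAP counts was 0.0140% in Root TRAP CK replicate 1 and 0.00536% to 0.00641% in the other five TRAP libraries. Without Root TRAP CK replicate 1 the mitochondrial median was -0.14, and without both GC-end libraries -1.16. The part of RNA carried over into the captured fraction was not tested.

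Lists of root cell types and of the other pathways held no gene called by edgeR or DESeq2. Root hair genes had a median of 0.44 over 9 genes, which was -0.42 with the recovered reads and -0.29 without both GC-end libraries. Their summed TRAP level was 13.5 to 19.0 CPM in all 6 TRAP libraries against 70.5 to 155 in total RNA. The other medians are given with, in brackets, their range over the recovered reads, the fit without both GC-end libraries, the block and the 12 fits that leave out single libraries. Endodermis genes had 0.27 over 9 (-0.055 to 0.34), xylem genes 0.19 over 6 (-0.020 to 0.45) and meristem and cell cycle genes 0.19 over 7 (-0.073 to 0.41). The 11 hypoxia genes were all above 0 with a median of 0.41 (-0.36 to 1.5), which was -0.36, with 2 of 11 above 0, with the recovered reads. All 11 were lower under MgD in total RNA (median -1.07) and, by less, in TRAP RNA (median -0.66). Jasmonate genes had 0.29 over 12 (-0.048 to 0.41), ethylene genes 0.16 over 20 (0.040 to 0.23), immune genes 0.15 over 10 (-0.025 to 0.36) and flavonoid genes 0.13 over 16 (-0.12 to 0.21). Sugar starvation genes had 0.57 over 4 (0.26 to 1.16) and the reference genes 0.27 over 5 (0.12 to 0.41). Auxin genes had -0.019 over 17 (-0.13 to 0.15), clock genes -0.017 over 15 (-0.14 to 0.097), phosphate genes -0.081 over 13 (-0.15 to 0.059), glucosinolate genes -0.12 over 19 (-0.22 to -0.033) and heat shock genes -0.23 over 13 (-0.52 to -0.035). The medians of ethylene, sugar starvation, reference, glucosinolate and heat shock genes kept their sign over that range, and those of the other cell type and pathway lists given with a range did not.

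Properties of the messages were read from RefSeq models (assembly TAIR10.1) for 20223 of the 20311 genes. The interaction was higher at a higher GC content of the coding sequence, from a median of -0.29 in the 632 genes at or under 40% GC to 0.15 in the 1155 genes over 50%. The gradient lay mostly in total RNA, with medians of 0.14 and -0.18, against -0.13 and -0.035 in TRAP RNA. Genes of low minus genes of high GC content differed from the mean of their RNA type by -0.57 in Root Total CK replicate 1 and 0.51 in Root Total MgD replicate 3, and by -0.11 to 0.30 in the other 10 libraries. Without both libraries the medians were -0.14 and -0.039, so the high-GC end was no longer above 0.

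**Figure D5:**
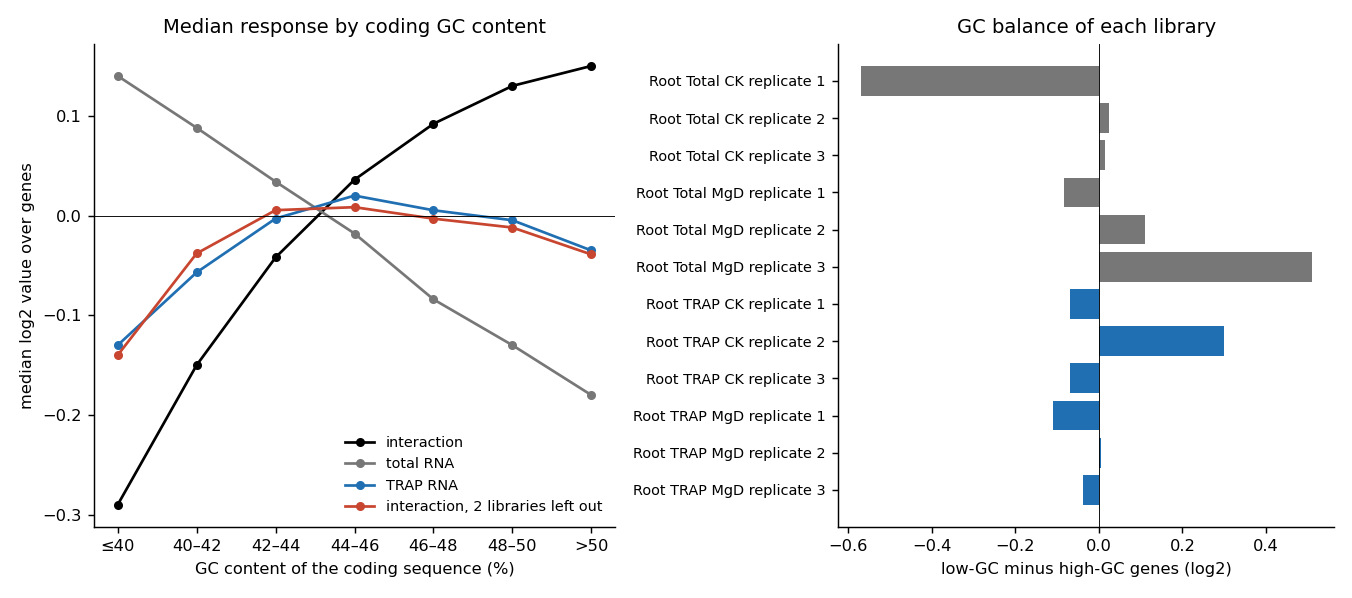
Left, the median log2 value over genes in 7 classes of coding GC content (x axis, %) for the interaction (black), total RNA (grey), TRAP RNA (blue) and the interaction without Root Total CK replicate 1 and Root Total MgD replicate 3 (red). Right, for each library, the median level of low-GC genes minus that of high-GC genes, relative to the mean of the 6 libraries of the same RNA type (log2).

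Coding length showed a non-monotonic relation in the fit of all 12 libraries. The median interaction was -0.17 in 767 genes with a coding length up to 300 nucleotides, 0.072 in 5170 genes between 1200 and 1800, and -0.055 in 529 genes over 3600. For the shortest genes it was -0.18 without both libraries, and the TRAP and total medians were -0.16 and 0.019. For the longest it was 0.049 without both, and the TRAP and total medians were -0.016 and 0.046. Between 1200 and 1800 nucleotides it was 0.056 without both, so the longest genes were then no longer below 0 and close to that class. The number of AUG codons ahead of the coding start made little difference: the median was 0.011 in 8187 genes with none and -0.022 in 571 genes with more than 9. Highly expressed genes, with an average log2 CPM over 8, had a median of 0.16 over 637 genes, which was -0.031 without both libraries.

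The root values were set against the same interaction in shoots, the tissue in which chlorophyll and most magnesium-dependent photosynthesis reside. In a model of all 24 libraries, 0 of 21163 genes (0%) differed in interaction between root and shoot by edgeR, with 868 (4.1%) at an unadjusted p under 0.05 and a smallest adjusted p of 0.865. PIP1;3 had 0.82 in root in that model and -0.18 ± 0.20 in shoot, a difference of 1.00 ± 0.28 (edgeR adjusted p 1). By the rule of smallest unadjusted p, MIPS1 had a difference of 1.28 ± 0.36, with -0.44 ± 0.25 in shoot, and HCF136 1.04 ± 0.25, with 0.014 ± 0.17. FUC1, an alpha-fucosidase, had 1.01 ± 0.27, with -0.42 ± 0.19 in shoot. On the lower side LETM2 had -1.05 ± 0.30, with 0.099 ± 0.21 in shoot, and ATERDJ2B, a J-domain protein of the endoplasmic reticulum, -1.01 ± 0.28, with 0.30 ± 0.19. PP2-B14, ARFD1A and CYP71B9 were also named by that rule, but their shoot libraries lay between 0 and 1.92 CPM, so the shoot side of their difference rests on very few reads. The aquaporin median was 0.34 in root and -0.18 in shoot and the phloem median 0.31 and -0.22, differences that were not tested as lists. Chloroplast-encoded genes (-1.04 and 0.054) and mitochondria-encoded genes (-0.59 and 0.12) also had medians of opposite sign. Other lists lay on the same side in both tissues: photosynthesis at 0.75 and 0.20, sulfate at -0.64 and -0.43, iron at -0.88 and -0.19, and abscisic acid at -0.39 and -0.30.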

How the data were processed

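Total and TRAP RNA were sequenced as messenger libraries (KAPA mRNA HyperPrep kit, per the labels' protocols). The submitters' processing notes name STAR 2.7.6a, Subread 2.0.0, Trimmomatic and FastQC. No source used here gives the genome build. The authors deposited a table of counts per gene (27655 loci) and a table of TPM values. Of low counts (up to 20), 81.5% to 91.7% were even in root libraries. The 8 samples labelled as removed were not analysed here.

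Counts were fitted for the 12 root libraries with edgeR 4.0.16 (filterByExpr, TMM, robust quasi-likelihood, Benjamini-Hochberg threshold 0.05), without a block. CPM are counts scaled to library size with TMM factors, and ± is the standard error. DESeq2 1.42.0 and limma 3.58.1 were alternatives, with pseudocounts of 1 and 0.1 on TPM. Reads were recovered from TPM for Root Total MgD replicate 3. Root libraries of the same label number had correlated deviations from group means of -0.0299 to 0.426 over 18 pairs. Total and TRAP libraries of 1 treatment with the same original number, given in a deposited list of library names, had 0.215 to 0.426 over 4 pairs. Those numbers were taken to pair total with TRAP RNA within a treatment. Some pairs across treatments were as high, with 0.329 for Root Total CK and MgD replicate 1 and 0.335 for Root TRAP CK and MgD replicate 3. The correlations alone therefore do not single out this pairing.

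Symbols came from RefSeq (TAIR10.1), which matched 27445 loci. Named genes were the 12 with the smallest unadjusted p in each direction, DESeq2 calls, up to 4 genes of each list described, RPL18B, magnesium transport genes and the 4 in each direction against shoot. Genes and lists were chosen with earlier results of these data known.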

Additional observations from a re-analysis of the deposited data

How the results depend on the processing

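The edgeR count of 0 genes called in the interaction was also 0 under each alternative except DESeq2, which called 5. For total RNA the count of 0 became 1 by DESeq2, 7 by limma with voom sample weights, 3 on log2(TPM + 1) and 7 with all 24 libraries. For TRAP RNA it became 170 by DESeq2 and 133 with all 24 libraries. Leaving out single libraries gave 0 to 0 in all 3 counts. At an unadjusted p under 0.05 the interaction had 658 to 2072 genes when single libraries were left out, the latter without Root TRAP CK replicate 3. With the label's replicate number as a block, 0 genes were called and 1449 had an unadjusted p under 0.05. With the submitters' first numbering of the libraries as a block, which left 2 residual degrees of freedom, these were 0 and 976. Only the 4 pairs of total and TRAP libraries that share a number inform that interaction. Root Total CK replicate 2, Root TRAP CK replicate 2, Root Total MgD replicate 3 and Root TRAP MgD replicate 3 lacked a partner. They add nothing to the blocked values, so the lack of calls says little about the pairing. The alternatives that scale by GC content, combine that with the block, or leave out both GC-end libraries were chosen after the data were seen, and gave 0 calls each.

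Of 77 named genes, 71 kept the sign of their interaction in each of 29 alternatives that gave a value, and 6 did not, in 48 of 2229 values. Many of the 77 were chosen by a small unadjusted p in these same data, which favours a kept sign. The 6 were RPL18B and magnesium transport genes, which were named whatever their p. The cause of the changes was not tested. RPL18B had -0.017 by limma with voom sample weights, -0.070 with GC scaling and the original-number block, -0.17 without both GC-end libraries, and -0.047 to 0.37 when single libraries were left out. MGT2 had -0.031 without TMM scaling, -0.026 on log2(TPM + 1), -0.023 on log2(TPM + 0.1), -0.023 with the original-number block, -0.020 with GC scaling, -0.038 with GC scaling and the original-number block, and -0.16 to 0.17 when single libraries were left out. MGT6 had -0.039 without TMM scaling, -0.0015 by DESeq2, -0.088 with the original-number block, -0.11 with GC scaling, -0.17 with GC scaling and the original-number block, -0.18 without both GC-end libraries, and -0.10 to 0.22 when single libraries were left out. MGT8 had 0.099 by limma with voom sample weights, 0.21 on log2(TPM + 0.1), 0.23 with the recovered reads, 0.69 with the original-number block, 0.69 with GC scaling and the original-number block, 0.39 without both GC-end libraries, and -0.33 to 0.46 when single libraries were left out. MGT9 had 0.13 by limma with voom sample weights, 0.14 without both GC-end libraries, and -0.12 to 0.14 when single libraries were left out. MGT10 had 0.029 by limma with voom sample weights, and -0.25 to 0.10 when single libraries were left out. Between libraries of the same group the chi-square per degree of freedom was at least 11, on counts that were mostly even when low. Whether this spread or depth limits the interaction more, with 3 libraries a group, was not tested. Genes with few TRAP counts, such as ATCG00490, ATCG00800 and MYB72, also carry a large counting error.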

Other observations

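Because VPS24.1 and VPS2.3 were both among the lower genes, the other genes of the ESCRT-III complex and its relatives were read out. This list was chosen after their values were seen, so it has no test. Of 14 genes 13 were tested, and 12 had an interaction below 0, with a median of -0.30 beside 0.0092 over all genes. The 12 and the median include VPS24.1 and VPS2.3, whose low values prompted the list. TRAP RNA was below 0 in 11 (median -0.18) and total RNA above 0 in 12 (median 0.12). VPS20.1, which starts the ESCRT-III polymer, had -0.54 ± 0.22. It was the third member lower at an unadjusted p under 0.05, after VPS24.1 and VPS2.3, beside 2.57% of all genes. SNF7.1 and SNF7.2, which form the polymer, had -0.30 ± 0.20 and -0.27 ± 0.18, and VPS46.2, a regulator of disassembly, was the exception at 0.24 ± 0.17. The median was -0.38 to -0.26 when single libraries were left out, -0.28 with the recovered reads and -0.28 without both GC-end libraries. In shoots it was -0.096.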
